A study of Mus musculus with 4 samples.

Results

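The mitochondrially encoded RNAs were followed in mouse embryonic fibroblasts (MEF cells), connective tissue cells grown from embryos. Every gene of the deposited count table whose symbol starts with mt- was taken, which gave 37 of 47937 genes. They comprise 2 ribosomal RNA (rRNA) genes, 22 transfer RNA (tRNA) genes and 13 messenger RNA (mRNA) genes, and so the full gene set of mouse mitochondrial DNA. Of these, 28 are made from the heavy strand of that DNA and 9 from the light strand. The study compared 2 groups of 2 libraries: wild-type MEF cells left untreated, and wild-type MEF cells given 50 µM genistein, a soy isoflavone, for 24 h. The sample titles read wild-type, control MEF and Genistein treated MEF, so they give wild-type for the control cells alone. The study calls the control cells untreated, while its methods give them the vehicle DMSO, in which genistein was dissolved. All libraries came from total RNA depleted of ribosomal RNA, and the labels name no deletion or further agent in either group. The labels do not say whether replicates were separate cultures, so p-values measure only the spread between these libraries.

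Mitochondrial DNA is a small circle that is transcribed by its own polymerase, POLRMT, into long RNAs that span nearly a whole strand. The tRNAs lie between the other genes, and the long RNAs are cut at the tRNA ends to free the rRNAs and mRNAs. The heavy strand gives both rRNAs, most tRNAs and all mRNAs but mt-Nd6, and every mRNA codes for a subunit of oxidative phosphorylation complexes I, III, IV or V. Fibroblasts keep many copies of this DNA per cell, and levels of the single RNAs differ widely because each is processed and degraded at its own rate.

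Several of these genes overlap a neighbour or have a near-identical nuclear copy, which limits what a count can separate, so the stretches concerned are shown here. All were read from the GENCODE transcripts of build GRCm38, the build of the counts, and are written 5′ to 3′. The first is the whole of mt-Tl1 (M:2676-2750, plus strand), the leucine tRNA gene between mt-Rnr2 and mt-Nd1, which had the highest counts of any tRNA row. The second is the end of mt-Atp8 (M:7917-7969, plus strand), with capitals for the 43 bases that also belong to mt-Atp6. Next come the ends of mt-Nd5 (M:13537-13565, plus strand) and mt-Nd6 (M:13552-13580, minus strand), which face each other from opposite strands, with capitals for the 14 bases that both genes cover. After them stands mt-Nd4 (M:11013-11072, plus strand), with capitals for the bases past the end of its nuclear copy Gm28439. The last pair is the start of mt-Nd3 (M:9459-9491, plus strand) and of its nuclear copy Gm28438 (1:24613087-24613119, minus strand), with the differing base in capitals.
mt-Tl1: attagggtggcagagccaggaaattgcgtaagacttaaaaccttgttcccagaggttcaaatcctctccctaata
mt-Atp8 end: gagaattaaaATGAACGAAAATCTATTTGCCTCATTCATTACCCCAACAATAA
mt-Nd5 end: ttatcttatactcaaTTAATCTCGAGTAA
mt-Nd6 end: ttattattatcgagaTTACTCGAGATTAA
mt-Nd4 at the end of its nuclear copy: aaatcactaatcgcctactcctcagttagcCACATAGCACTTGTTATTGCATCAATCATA
mt-Nd3 start: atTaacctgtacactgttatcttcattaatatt
Gm28438 start: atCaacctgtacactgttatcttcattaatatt
Counted from 1 at the start of mt-Nd3, the only mismatch over the 345 aligned bases of this pair was T3C, so nearly any read from either would match both.

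The libraries held between 28591958 and 31464284 counts over genes and repeats. A normalised count below is a count scaled to the mean effective library size (trimmed mean of M-values, TMM), and a log2 fold change is genistein over untreated with its standard error (SE). Fibroblast markers were high throughout, apart from Thy1, which was at 0. Of the 7 tested, edgeR called Fn1 higher (log2 fold change 0.20) and 6 lower, from -0.16 for Pdgfra to -0.73 for Pdgfrb. That is 14.3% higher and 85.7% lower, against 36.2% and 36.0% of all tested entries. Over all 8 genes the summed level was 421357 to 433573 normalised counts in untreated and 394664 to 404432 in genistein libraries. Summed markers of other cells were far below these levels but differed several-fold between the groups: 717 to 767 against 113 to 127 for epithelium, 67.8 to 84.9 against 220 to 226 for blood cells, 25.0 to 30.7 against 85.3 to 97.2 for endothelium and 31.8 to 37.0 against 265 to 286 for muscle. Every tested member of these lists was called by edgeR, where 36.2% of all tested entries were called higher and 36.0% lower. Krt14 (log2 fold change -2.68) and Krt18 (-2.76) were lower. Kdr (1.98), Des (3.03) and Cd68 (a mean of 74.8 normalised counts in untreated and 212 in genistein libraries) were higher. Epcam, Krt5, Adgre1, Hbb-bs and Myod1, of the same lists, were at 0 in every library. The part of any other cell in the results was not tested.

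Genistein libraries held more mitochondrially encoded RNA, and most of that difference lay in the rRNAs. The 37 genes took 2.07% and 1.96% of all counts in untreated and 3.30% and 3.14% in genistein libraries, a log2 ratio of 0.68 with an SD between replicates of 0.05. The 2 rRNA genes took 1.19% and 1.13% against 2.29% and 2.14%, and the 13 mRNA genes 0.873% and 0.831% against 1.01% and 1.00%. The 22 tRNA genes together took only 0.00302% to 0.00350%, and there the genistein libraries were the lower. Without the rRNA genes the log2 ratio of the share dropped to 0.24. In bulk RNA, a difference in mitochondrial genomes per cell and a difference in RNA per genome cannot be told apart, whichever way a gene went. No test was run on these sums, and with 2 libraries against 2 an exact permutation test cannot go below a two-sided p of 0.333.

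**Figure D1:**
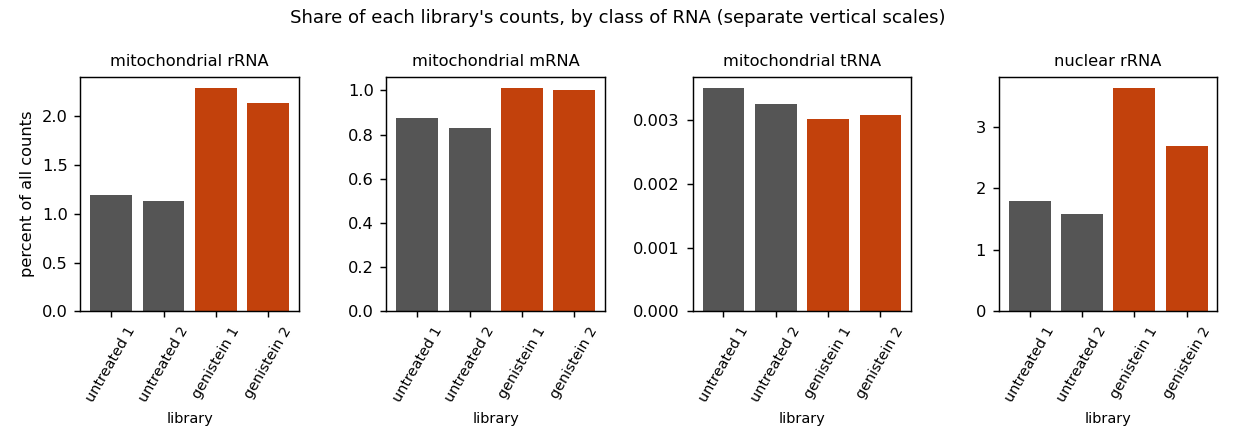
Bars give the percent of all counts in genes and repeats for each of the 4 libraries (grey untreated, orange genistein), in 1 panel per class of RNA with its own vertical scale from 0. Mitochondrial rRNA and nuclear rRNA stood higher in both genistein libraries, mitochondrial mRNA differed less, and mitochondrial tRNA was at most 0.00350% everywhere.

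Single genes went in both directions. Of the 37 genes, 28 passed the filter on low counts. In the edgeR quasi-likelihood fit, with p-values adjusted (Benjamini-Hochberg) for all 17358 genes and repeats tested, 10 of the 28 were higher at an adjusted p under 0.05, 5 were lower and 13 were not called. That is 35.7% higher and 17.9% lower, where 36.2% of all tested entries were called higher and 36.0% lower, so the share called higher is near the background. With the thresholds of the study (besides the adjusted p, a log2 change beyond 1 either way and more than 100 normalised counts on average), mt-Rnr1, mt-Nd4 and mt-Nd5 were higher and none of the 28 was lower, against 3.91% and 3.92% of all entries. The median log2 fold change of the 28 was -0.01, and of all tested entries 0.02. Among the 9 genes that were not tested, the light-strand tRNA genes mt-Tq, mt-Ta, mt-Tn, mt-Tc and mt-Ty were at 0 in all 4 libraries, which allows up to 3 counts in each. The others, mt-Ts1, mt-Tr, mt-Th and mt-Ts2, had at most 8.47 normalised counts in any library.

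**Figure D2:**
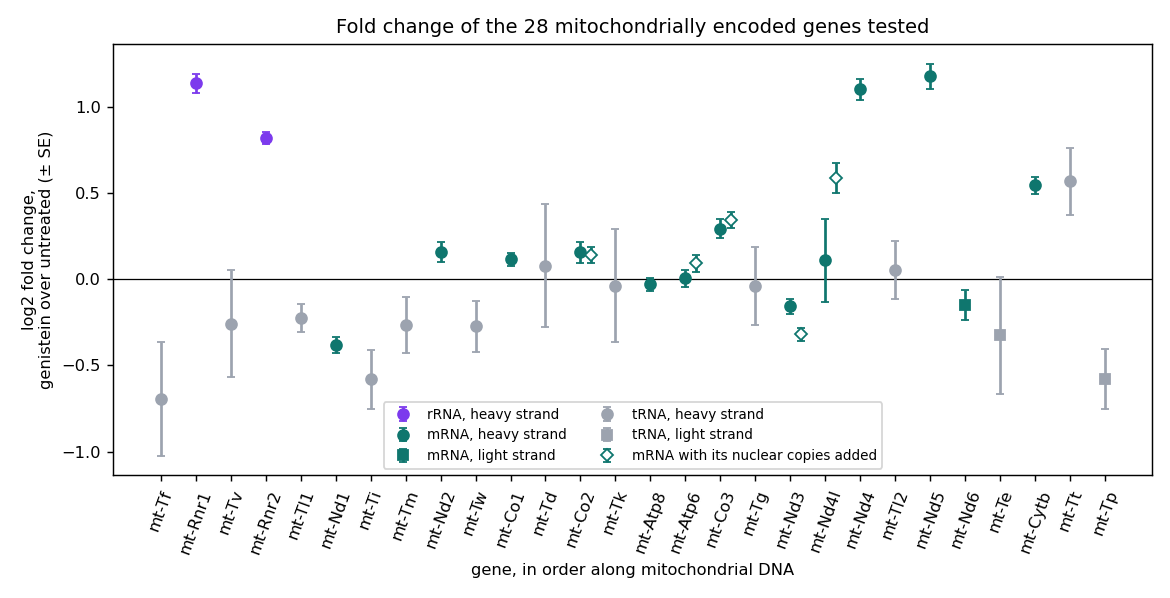
Points give the log2 fold change (genistein over untreated, with SE bars) of the 28 tested genes in their order along mitochondrial DNA, coloured by class and shaped by strand, and open diamonds give 5 mRNAs with their nuclear copies added. mt-Nd5, mt-Rnr1, mt-Nd4 and mt-Rnr2 lie highest, from 0.82 to 1.18, mt-Nd4l with copies (0.59), mt-Tt (0.57) and mt-Cytb (0.54) come next, and mt-Nd1 is the lowest mRNA at -0.38.

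Both rRNAs rose. The small-subunit rRNA of the mitochondrial ribosome, mt-Rnr1 (12S; M:70-1024), had 44449 and 43095 normalised counts in untreated and 103072 and 89359 in genistein libraries. The groups were far apart, with a log2 fold change of 1.14 ± 0.06 (SE; edgeR, adjusted p = 2.08e-11). The large-subunit rRNA mt-Rnr2 (16S; M:1094-2675) had 321194 and 302875 against 571390 and 528665, a log2 fold change of 0.82 ± 0.04 (edgeR, adjusted p = 5.34e-12). mt-Rnr2 was the most abundant member, and mt-Rnr1 rose more, so that the ratio of mt-Rnr2 to mt-Rnr1 was 7.23 and 7.03 in untreated and 5.54 and 5.92 in genistein libraries.

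The library kit removes rRNA of the cytoplasm and of mitochondria before sequencing, so these values are of what the depletion left. The nuclear rRNA rows, which were counted as repeats, were higher as well. So were repeats in general: the median log2 fold change was 0.69 over the 1118 tested repeats and -0.03 over the 16240 tested genes. The row of the large nuclear rRNA, LSU-rRNA_Hsa, had 516154 and 467036 normalised counts in untreated and 1019251 and 742991 in genistein libraries, a log2 fold change of 0.84 ± 0.09 (edgeR, adjusted p = 3.02e-07). The small one, SSU-rRNA_Hsa, had 32949 and 18364 against 49017 and 35754, and the 5S row 98.9 and 115 against 156 and 153. All 3 were called higher, with log2 fold changes of 0.84, 0.72 and 0.53, where 36.2% of all tested entries were called higher. The share called among repeats alone was not computed. The ratio of mt-Rnr2 to LSU-rRNA_Hsa was 0.622 and 0.649 in untreated and 0.561 and 0.712 in genistein libraries, so the groups overlapped (exact permutation p = 1, two-sided). How much of the rise in the rRNAs comes from the depletion step was not tested.

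**Figure D3:**
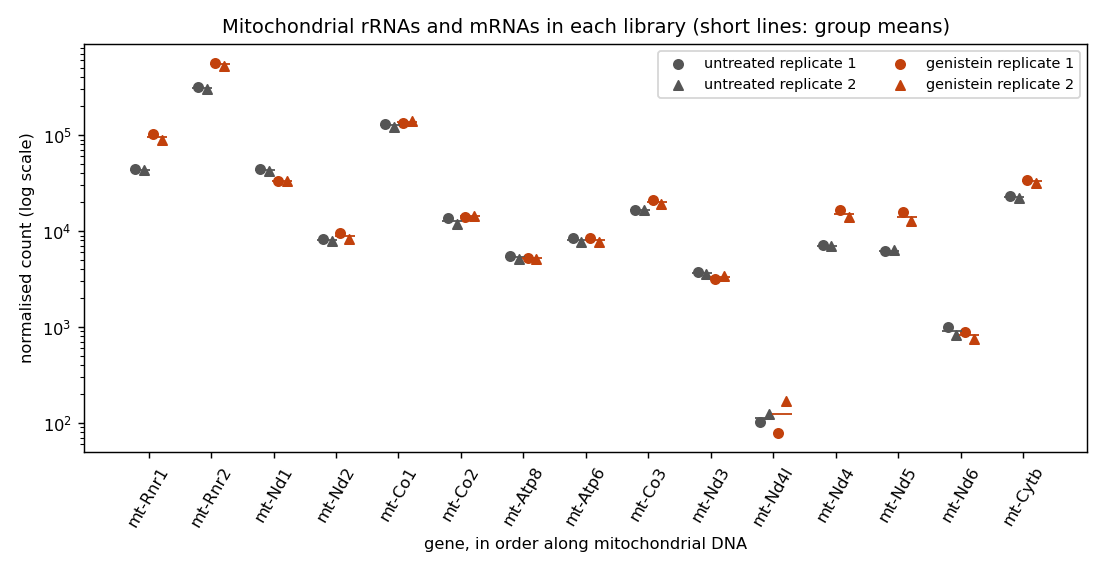
Normalised counts (log scale) of the 2 rRNA and 13 mRNA genes in each library, in their order along mitochondrial DNA, with grey for untreated and orange for genistein, circles for replicate 1, triangles for replicate 2 and short lines for group means. The groups lie apart for mt-Rnr1, mt-Rnr2, mt-Nd1, mt-Nd4, mt-Nd5 and mt-Cytb, and overlap for mt-Atp8, mt-Atp6, mt-Nd4l and mt-Nd6.

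Among the 12 heavy-strand mRNAs, 7 were higher, 2 were lower and 3 were not called, with a median log2 fold change of 0.14. That is 58.3% higher and 16.7% lower, against 36.2% and 36.0% of all entries. Their summed normalised count was 267290 and 253609 in untreated and 296871 and 289263 in genistein libraries, a log2 ratio of 0.17 with a replicate SD of 0.04. This modest difference of the sum covered log2 fold changes from -0.38 to 1.18 in single genes. The 7 mRNAs of complex I, the NADH dehydrogenase that passes electrons into the respiratory chain, spanned that whole range.

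Among the mRNAs, the largest rises were of mt-Nd5 and mt-Nd4, subunits of the proton-pumping membrane arm of complex I. For mt-Nd5 (M:11742-13565) the normalised counts were 6183 and 6349 in untreated and 15722 and 12625 in genistein libraries. This is a mean of 6266 ± 118 against 14174 ± 2190 (SD, n = 2) and a log2 fold change of 1.18 ± 0.07 (edgeR, adjusted p = 3.83e-10). For mt-Nd4 (M:10167-11544) they were 7157 and 6976 against 16425 and 13878, a log2 fold change of 1.10 ± 0.06 (edgeR, adjusted p = 1.48e-10). Both genes more than doubled, and genistein replicate 1 was the higher of its pair for each. The next gene on the heavy strand, mt-Cytb (M:14145-15288), codes for cytochrome b, the only mitochondrially encoded subunit of complex III. It had 23204 and 22395 against 34465 and 31982 and rose by 0.54 ± 0.05 on the log2 scale (edgeR, adjusted p = 5.04e-08).

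The first mRNA after the rRNAs went the other way. mt-Nd1 (M:2751-3707), which codes for the complex I subunit at the joint of its membrane arm and its matrix arm, had 44452 and 42021 normalised counts in untreated and 33213 and 33241 in genistein libraries. The log2 fold change was -0.38 ± 0.05 (edgeR, adjusted p = 1.40e-06), and the groups did not overlap. The ratio of mt-Nd5 to mt-Nd1 in the same library was 0.139 and 0.151 in untreated and 0.473 and 0.380 in genistein libraries, and that of mt-Nd4 to mt-Nd1 0.161 and 0.166 against 0.495 and 0.417. These ratios within a library do not depend on how the libraries were scaled. Over the 9 ratios compared, all but that of mt-Rnr2 to LSU-rRNA_Hsa had groups that lay apart, each at the smallest two-sided exact permutation p of 0.333 (0.375 after Benjamini-Hochberg adjustment).

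Other heavy-strand mRNAs differed by smaller amounts. mt-Co1 (M:5328-6872), the catalytic subunit of complex IV and the mRNA with the highest counts, had 129914 and 122945 normalised counts against 134936 and 138942, a log2 fold change of 0.12 ± 0.04 (edgeR, adjusted p = 0.0118). mt-Nd2 (M:3914-4951), another membrane subunit of complex I, had 8240 and 7849 against 9617 and 8333, a log2 fold change of 0.16 ± 0.06 (edgeR, adjusted p = 0.0183). Both calls rested on single libraries. Without genistein replicate 2 the value of mt-Co1 was 0.10 (adjusted p = 0.142), and for mt-Nd2 it was 0.06 without genistein replicate 1 (adjusted p = 0.270) and 0.12 without untreated replicate 2 (adjusted p = 0.104). mt-Atp8 (M:7766-7969), a small subunit of the ATP synthase, had 5553 and 5115 against 5298 and 5162 and was not called at -0.03 ± 0.04; without untreated replicate 2 it was called lower, at -0.09 (adjusted p = 0.0456).

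For mt-Co2, mt-Atp6, mt-Co3, mt-Nd3 and mt-Nd4l the count in the mitochondrial gene was only part of the signal. A stretch of chromosome 1 (1:24611535-24616197) holds a copy of mitochondrial DNA whose pieces are annotated as the genes Gm28439, Gm10222, Gm28438, Gm28437, Gm10925, Gm28661 and Gm29216. Gm28661, Gm10925 and Gm28437 matched mt-Co2, mt-Atp6 and mt-Co3 at 100% over 681, 678 and 783 bases, Gm10222 matched mt-Nd4l at 100% over 294 bases, and Gm28438 matched mt-Nd3 at 99.71%. Of the counts of each pair, the nuclear copy held 48.2% to 53.3% for mt-Co2, 48.9% to 56.1% for mt-Co3, 55.7% to 59.4% for mt-Atp6, 40.7% to 48.3% for mt-Nd3 and 64.4% to 86.9% for mt-Nd4l. The copies of mt-Nd4 and mt-Co1 cover only part of those genes (876 of 1378 and 483 of 1545 bases), and took 0.320% to 0.423% and 0.103% to 0.130%. These shares are far below those of the near-complete copies, although Gm28439 matched mt-Nd4 at 100% over its 876 bases. Why the shares differ so much between copies was not tested. In all, 19 annotated nuclear copies were found. Outside chromosome 1 only Gm13340, a copy of mt-Co1 on chromosome 2 with 97.605% identity, reached 100 counts in a library, at 0.189% to 0.203% of its pair. These 5 genes are therefore uncertain, and each is given below alone and with its nuclear copies added. mt-Atp8, mt-Td, mt-Tk, mt-Tg and mt-Tr lie between the copied genes on mitochondrial DNA, but no annotated copy of them was found. Gm10925 covers the 43 bases that mt-Atp8 shares with mt-Atp6. Whether the unannotated parts of the chromosome 1 stretch match these genes was not examined, so their counts may be incomplete as well.

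**Figure D4:**
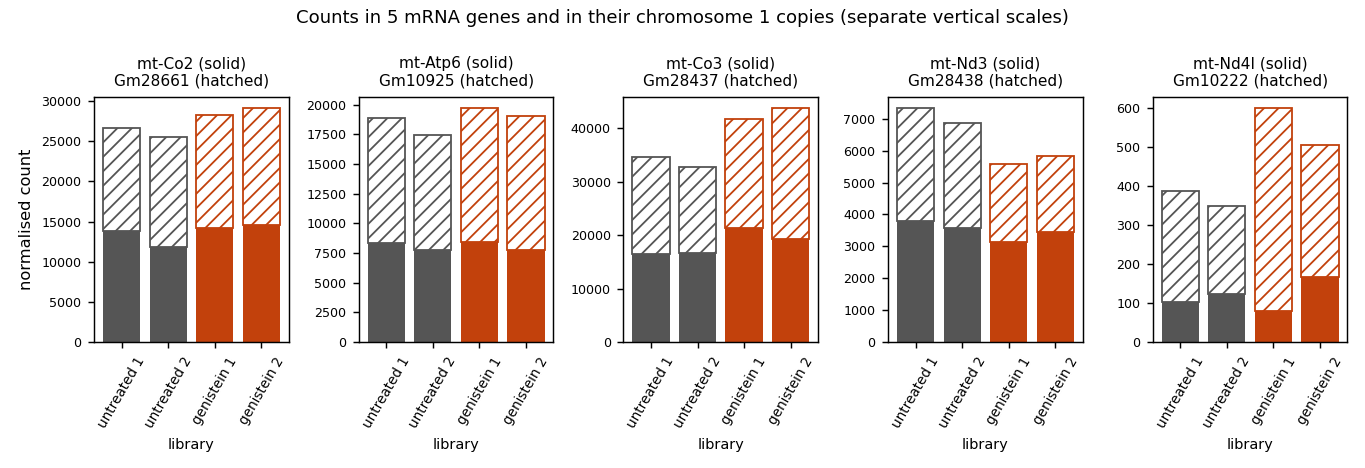
Stacked bars give the normalised counts of 5 mitochondrial mRNA genes (solid) and of their chromosome 1 copies (hatched) in each library, 1 panel per pair with its own scale from 0. The copy holds between 40.7% and 86.9% of each pair, and for mt-Nd4l its part ran from 64.4% to 86.9% among libraries.

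mt-Co3 (M:8607-9390), a core subunit of complex IV, had 16475 and 16622 normalised counts in untreated and 21346 and 19220 in genistein libraries, a log2 fold change of 0.29 ± 0.05 (edgeR, adjusted p = 0.000113), and 0.34 ± 0.05 with its copies added. mt-Co2 (M:7013-7696), which takes electrons from cytochrome c, had 13836 and 11902 against 14153 and 14527, with 0.16 ± 0.06 alone (adjusted p = 0.0282) and 0.14 ± 0.05 with copies (adjusted p = 0.0137). Its call was lost without untreated replicate 2, where the value was 0.05 (adjusted p = 0.528). All 3 complex IV mRNAs thus stood higher in genistein libraries, by small amounts. mt-Atp6 (M:7927-8607), the proton channel subunit of the ATP synthase, had 8387 and 7748 against 8468 and 7736 and was called neither alone (0.01 ± 0.05) nor with copies (0.09 ± 0.05, adjusted p = 0.116).

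mt-Nd3 (M:9459-9806) had 3787 and 3566 normalised counts in untreated and 3148 and 3448 in genistein libraries and fell by 0.16 ± 0.04 on the log2 scale (edgeR, adjusted p = 0.00417). With its copies added it had 7325 and 6877 against 5570 and 5817, and the change was -0.32 ± 0.04 (adjusted p = 1.15e-06). Alone it was not called without genistein replicate 1, at -0.09 (adjusted p = 0.0961). The gene codes for a small membrane subunit of complex I, and with mt-Nd1 it was the second mRNA of that complex to be lower.

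mt-Nd4l (M:9877-10173) lies upstream of mt-Nd4, shares 7 bases with it and is known to be kept with it on 1 mRNA. It had 103 and 124 normalised counts in untreated and 78.8 and 168 in genistein libraries, so the groups overlapped and the gene was not called (0.11 ± 0.24, adjusted p = 0.693, edgeR). The value ran from -0.52 without genistein replicate 2 to 0.57 without genistein replicate 1, both called. With copies added it had 387 and 348 against 599 and 504, and was higher by 0.59 ± 0.09 (adjusted p = 1.58e-05).

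Per 1000 bases of gene, and with the copies added where they were near-complete, the mRNA levels covered a wide range. mt-Co1 was highest, with 84087 and 79576 normalised counts per 1000 bases in untreated and 87337 and 89930 in genistein libraries. In untreated cells mt-Nd1 came next with a mean of 45179, followed by mt-Co3 at 42952, mt-Co2 at 38200, mt-Atp6 at 26726, mt-Atp8 at 26146, mt-Nd3 at 20406 and mt-Cytb at 19929. The replicates overlapped between neighbours for mt-Nd1 and mt-Co3, for mt-Atp6 and mt-Atp8, and for mt-Nd3 and mt-Cytb. No copies could be added for mt-Atp8, so its place beside mt-Atp6 is uncertain. The lower end was held by mt-Nd2 at 7750, mt-Nd4 at 5128, mt-Nd5 at 3435, mt-Nd6 at 1761 and mt-Nd4l at 1237.

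The order was another in genistein libraries. mt-Co3 (54552) and mt-Co2 (42049) stood above mt-Nd1 (34720), and mt-Nd4 (10995) stood above mt-Nd2 (8647). mt-Cytb (29042) had moved past mt-Nd3 (16361) and mt-Atp8 (25638) and was level with mt-Atp6 (28465). mt-Nd4l (1857), whose place is uncertain, lay beside mt-Nd6 (1586), with overlapping replicates. The level of mt-Nd5 was 7771, and its replicates, at 8620 and 6922, lay on both sides of the lower mt-Nd2 value of 8028. The log2 fold changes of the 12 heavy-strand mRNAs went with their position along the strand (Pearson r = 0.63, Spearman rho = 0.57) and with log2 gene length (r = 0.57, rho = 0.69), inversely with the log2 untreated level per 1000 bases (r = -0.35, rho = -0.39), and hardly with GC content (r = 0.11, rho = 0.19). Without mt-Nd4l, whose count is uncertain, r was 0.66 for position, 0.59 for length and -0.67 for the untreated level over 11 genes. All of these correlations used each gene alone, without its copies. The untreated levels in them thus differ from those listed above with copies, such as 21107 for mt-Co3 and 382 for mt-Nd4l. The counts of mt-Co2, mt-Atp6, mt-Co3 and mt-Nd3 are uncertain as well, and these genes were kept in. The correlations are a description over 12 genes of the same 4 libraries, and position, length and level were not separated. Untreated counts enter both the fold change and the untreated level, which by itself can give an inverse correlation. No conclusion is drawn from that one.

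The light strand gave little RNA in these counts. Its only mRNA, mt-Nd6 (M:13552-14070), codes for a membrane subunit of complex I. It had 1007 and 820 normalised counts in untreated and 897 and 749 in genistein libraries, a mean of 914 ± 132 against 823 ± 105 (SD, n = 2). The groups overlapped and the gene was not called (-0.15 ± 0.09, adjusted p = 0.142, edgeR). That depended on a single library: the value was 0.00 without untreated replicate 1 (adjusted p = 0.976), and was called lower at -0.29 without untreated replicate 2 and -0.28 without genistein replicate 1. The ratio of summed heavy-strand mRNA to mt-Nd6 was 265 and 309 in untreated and 331 and 386 in genistein libraries. mt-Nd5, whose end faces that of mt-Nd6 from the other strand, was 6.14 and 7.74 times mt-Nd6 in untreated and 17.5 and 16.9 times in genistein libraries. The kit keeps the strand of each RNA, but the sources used here do not give the strand setting of the counting, so reads over the shared bases cannot be assigned with certainty.

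The tRNA genes are 59 to 75 bases long, and mature tRNAs are short, folded and heavily modified, so that they are poorly caught by a total RNA library. The counts of these rows do not separate mature tRNA from longer RNAs that run through the gene. Of the 22 genes, 13 were tested: 1 was higher, 3 were lower and 9 were not called, with a median log2 fold change of -0.26. Both shares, 7.69% and 23.1%, were below those of all entries (36.2% and 36.0%). Summed heavy-strand tRNA rows had 928 and 895 normalised counts in untreated and 805 and 799 in genistein libraries, a log2 ratio of -0.18. Summed light-strand rows had 148 and 103 against 84.4 and 92.1, a log2 ratio of -0.51 that was -0.22 without untreated replicate 1.

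mt-Tl1, the row shown above, had 386 and 361 normalised counts in untreated and 315 and 324 in genistein libraries and was lower by edgeR (log2 fold change -0.23 ± 0.08, adjusted p = 0.0204). Its gene, which carries leucine for the UUR codons, lies between a neighbour that rose, mt-Rnr2, and one that fell, mt-Nd1. The call was lost without untreated replicate 1 (-0.18, adjusted p = 0.143) and without genistein replicate 1 (-0.20, adjusted p = 0.0726). mt-Ti, the isoleucine tRNA just after mt-Nd1, had 83.9 and 102 against 57.2 and 66.8 (-0.58 ± 0.17, adjusted p = 0.00631). It was not called without genistein replicate 1 (-0.46, adjusted p = 0.0714).

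On the light strand the proline tRNA mt-Tp was the only row called. It had 119 and 86.8 normalised counts in untreated and 68.5 and 69.8 in genistein libraries (-0.58 ± 0.17, adjusted p = 0.00716, edgeR), and -0.33 without untreated replicate 1 (adjusted p = 0.138). Its neighbour on the heavy strand, the threonine tRNA mt-Tt, lies just after mt-Cytb and was the only tRNA row called higher. It had 40.0 and 43.4 against 65.6 and 57.7 (0.57 ± 0.20, adjusted p = 0.0160), and lost its call without untreated replicate 1 (0.50, adjusted p = 0.0669) and without genistein replicate 1 (0.47, adjusted p = 0.136). The first tRNA of the heavy strand, mt-Tf, was at 21.0 and 20.1 against 12.2 and 13.2, and was not called (-0.69 ± 0.33, adjusted p = 0.0697). Each of the 4 tRNA calls thus hung on at least 1 library, and the methionine tRNA mt-Tm, not called at -0.27, was called without untreated replicate 2 (-0.39, adjusted p = 0.0442).

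The nuclear genes that make, cut and stabilise mitochondrial RNA were lower as a list. Of the 69 genes of mitochondrial DNA and RNA upkeep, all tested, 7 were higher, 53 were lower and 9 were not called, with a median log2 fold change of -0.45. Higher calls were 10.1% and lower calls 76.8% of the list, against 36.2% and 36.0% of all entries. With the thresholds of the study, 0 were higher and 3 lower, where 3.91% of all entries were higher and 3.92% lower. In transcription, 1 of 9 genes was higher and 5 were lower (11.1% and 55.6%). The polymerase Polrmt had 1106 and 1097 normalised counts in untreated and 890 and 832 in genistein libraries (-0.35 ± 0.06, adjusted p = 2.70e-05, edgeR). The promoter factor and DNA packaging protein Tfam had 2723 and 2791 against 1764 and 1779 (-0.64 ± 0.04, adjusted p = 2.76e-10). The elongation factor Tefm (-0.46) and the promoter-opening factor Tfb2m (-0.43) were lower too, while Mterf2, of the termination factor family, was higher at 0.31.

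RNA processing was the most uniform of these lists, with 11 of 12 genes lower (91.7%, against 36.0% of all entries) and a median of -0.74. The tRNA 3′ end nuclease Elac2 had 1860 and 1809 against 898 and 833 normalised counts (-1.08 ± 0.05, adjusted p = 1.54e-11), and Tbrg4 (FASTKD4) and Fastkd1, of an RNA-binding family, were at -1.12 and -0.88. Of 9 genes of RNA stability and decay 8 were lower, among them Lrpprc, which holds mitochondrial mRNAs stable (-0.57 ± 0.03), and the exonucleases Rexo2 (-0.90), Pnpt1 (-0.84) and Pde12 (-0.68). Of 18 rRNA and tRNA modification genes 15 were lower, such as the pseudouridine synthase Pus1 (-1.05), the 16S rRNA methyltransferase Mrm3 (-0.94) and the CCA-adding enzyme Trnt1 (-0.75). The tRNA methyltransferase Nsun3 was higher at 0.51. Lower calls were 88.9% of the stability and decay list and 83.3% of the modification list, against 36.0% of all entries.

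Of 13 genes of mitochondrial DNA replication, topology and nucleotide supply, 4 were higher (30.8%, near the 36.2% of all entries) and 8 lower (61.5%, against 36.0%). The DNA polymerase Polg (-0.36), the helicase Twnk (-0.73), the topoisomerase Top1mt (-0.87), the RNase H Rnaseh1 (-0.79) and the single-strand binding protein Ssbp1 (-0.74) were lower. The primase Primpol (0.95), the p53-inducible ribonucleotide reductase subunit Rrm2b (0.56) and the deoxyguanosine kinase Dguok (0.41) were higher. Of 8 regulators of mitochondrial biogenesis 6 were lower (75%, against 36.0% of all entries), with Gabpa at -0.81, Pprc1 at -0.79 and Nrf1 at -0.73. Ppargc1a (PGC-1α) was called higher at 1.11 ± 0.46 (adjusted p = 0.0396), from only 6.99 and 6.35 against 18.8 and 10.1 normalised counts.

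The nuclear partners of the mitochondrially encoded subunits were mostly lower. Of 70 nuclear subunits of complexes I, III, IV and V, 6 were higher and 51 lower, with a median of -0.29. That is 8.57% and 72.9% of the list, against 36.2% and 36.0% of all entries. With the thresholds of the study 0 were called, where 3.91% of all entries were higher and 3.92% lower. The summed normalised count of the 70 subunits was 227815 and 221882 in untreated and 166583 and 168494 in genistein libraries. The ratio of heavy-strand mitochondrial mRNA to this sum was 1.17 and 1.14 against 1.78 and 1.72. By complex, 6 of 36 genes were higher and 22 lower in I, 9 of 9 lower in III, 7 of 10 in IV and 13 of 15 in V. Lower calls were thus 61.1%, 100%, 70% and 86.7% in turn, against 36.0% of all entries. Ndufs8 (-0.94), Ndufs1 (-0.70), Cyc1 (-0.95), Uqcrc2 (-0.68), Cox7c (-0.62), Cox5a (-0.38), Atp5g1 (-0.80) and Atp5g3 (-0.76) were among those lower, and Ndufv3 (0.35) and Ndufa1 (0.23) among those higher. In complex II, which has no mitochondrially encoded subunit, 4 of 4 genes were lower, with Sdhd at -0.62 and Sdhb at -0.61.

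**Figure D5:**
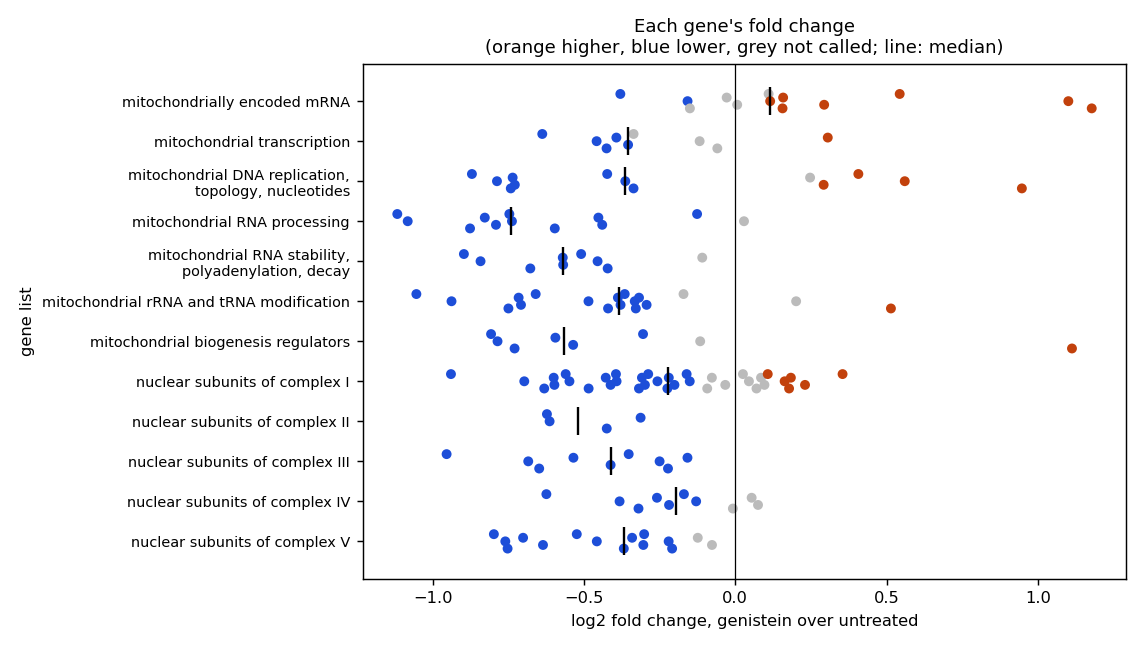
Each point is the log2 fold change (genistein over untreated) of 1 gene, in rows by list, with the mitochondrially encoded mRNAs in the top row, orange for higher, blue for lower, grey for not called and a black line for the row's median. The nuclear lists have medians from -0.74 to -0.19, and the mitochondrially encoded mRNAs have a median of 0.12.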

How the data were processed

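Total RNA of 4 libraries was depleted of rRNA and made into stranded libraries with the TruSeq Stranded Total RNA Gold kit. The authors trimmed the paired reads with Trim Galore, aligned them to mm10 (GRCm38) with STAR, keeping reads that align to many places, and counted genes (GENCODE M9) and repeats with TEtranscripts. The deposited values are raw counts per gene or repeat. How the counter divided reads with several matches and its strand setting are not given in the sources used here. The unnamed row (0.00208% to 0.00314% of counts) was left out.

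Members and gene lists were chosen with earlier results of these data known. The named nuclear genes are Polrmt, Tfam, Twnk, Polg, Top1mt and Lrpprc, up to 3 genes per direction and list, and up to 2 per complex and direction, by size of fold change among called genes whose groups do not overlap. Nuclear copies are named from 100 counts in a library. Gene names were matched to GENCODE M21 (GRCm38), which gave strand, coordinates and sequences. Nuclear copies were annotated genes that matched a member by blastn 2.17.0 (at least 80% identity over at least 50% of the copy).

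In R 4.3.3, edgeR 4.0.16 (TMM, filterByExpr by group, quasi-likelihood test, Benjamini-Hochberg over 17358 entries: 16240 genes and 1118 repeats) gave the calls at an adjusted p under 0.05. DESeq2 1.42.0, other scalings, no filter, a replicate block, added nuclear copies and leaving out each library were alternatives. The scripts were tested on simulated counts. Replicates differed beyond sampling noise in both groups (chi-square per degree of freedom 5.70 and 13.1). The intervals and floors implied by counts cover counting error only.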

Additional observations from a re-analysis of the deposited data

How the results depend on the processing

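Under RLE size factors, library totals alone, scaling from genes alone or without the mitochondrially encoded genes, no filter, DESeq2, a replicate block and added nuclear copies, mt-Rnr1, mt-Rnr2, mt-Nd4, mt-Nd5, mt-Cytb, mt-Co3 and mt-Nd1 kept their direction and their call, and so they did without any single library. The median log2 fold change of all entries moved from 0.02 to at most 0.08 with any scaling.

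The number of members called lower, 5 in the report, was 3 with library totals alone, 2 with DESeq2 and 0 with the thresholds of the study, where 3 were higher. Of all entries, 5563 were called lower with library totals alone and 5331 with DESeq2, against 6242 in the main fit. With the thresholds of the study, 0 of 69 nuclear genes for mitochondrial RNA and DNA were higher and 3 lower. Of 70 nuclear subunits 0 were called either way. Among all entries, 3.91% were higher and 3.92% lower by these thresholds. Nuclear subunits called higher numbered 12 with library totals alone and 10 with scaling from genes alone. Of all 17358 entries, 6972 and 6736 were called higher in these settings, against 6289 in the main fit. For these settings in turn, the summed heavy-strand mRNA had log2 ratios of 0.24 and 0.21, and the summed heavy-strand tRNA -0.11 and -0.14. The share of counts had a log2 ratio of 0.28 over counts without any rRNA row and 0.24 without the mitochondrial rRNA genes. The cause was not tested.

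When each library was left out in turn, the remaining library of its group was assumed to vary like the other group. Members called lower then ranged from 3 to 8, the summed light-strand tRNA from -0.75 to -0.22 and the summed heavy-strand tRNA from -0.21 to -0.16.

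Genes near 0 changed sign: mt-Atp6 was at -0.0028 with RLE and with DESeq2, and -0.020 without the filter. With library totals alone and with scaling from genes alone, mt-Tk was at 0.031 and 0.0059, mt-Atp8 at 0.041 and 0.015, and mt-Tg at 0.030 and 0.0048. Without single libraries, signs turned in mt-Atp8 (-0.091 to 0.028), mt-Atp6 (-0.055 to 0.071), mt-Nd4l (-0.52 to 0.57), mt-Nd6 (-0.29 to 0.0031), mt-Te (-0.69 to 0.18), mt-Tk (-0.26 to 0.17), mt-Tl2 (-0.051 to 0.16) and mt-Tg (-0.13 to 0.060). DESeq2 called neither mt-Nd2 (adjusted p = 0.217) nor mt-Co2 (0.248) nor any of mt-Tl1, mt-Ti, mt-Tt and mt-Tp, and library totals alone called neither mt-Nd3 (adjusted p = 0.108) nor mt-Tl1 (0.0981).

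Over the tested entries, the difference between the untreated replicates did not go with that between the genistein replicates (correlation -0.03 over 2 pairs). A single correlation cannot decide whether same-numbered libraries were paired, and the labels do not say. With the replicate block, 10 members were higher and 6 lower, where 6182 of all 17358 entries were higher and 6162 lower. The addition was mt-Nd6 (edgeR, adjusted p = 0.0312), which was also called without the filter (adjusted p = 0.00980). Most tRNA genes had few counts and large standard errors, up to 0.36 for mt-Td.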
